A study of Homo sapiens with 18 samples.

Results

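The 9 genes described here, IFNGR1, IFNGR2, JAK1, JAK2, TYK2, STAT2, STAT3, SOCS1 and SOCS3, encode receptor chains, kinases, transcription factors and inhibitors of the signalling route that IFNγ uses. They were chosen by symbol, with earlier results of these data known. Each of the 9 was found among the 39859 gene symbols of the count tables. All 9 also passed the filter on low counts, as did 13370 genes in all, and 8 of them had a read in each of the 15 libraries used. The counts are 3′ end reads (QuantSeq, a method that reads the end of each polyadenylated transcript) from RKO cells, a human colon carcinoma line, in which doxycycline switches on Cas9. In every group the cells came from 1 single-cell-derived iCas9 clone, were transduced with a guide RNA and sorted as a bulk population, and received 100 ng/mL doxycycline for 5 days. Cells with a guide against ERH (sgERH) were given 25 ng/mL IFNγ (sgERH_IFNγ, 2 libraries used) or 10 ng/mL IL-1β (sgERH_IL-1β, 3 libraries) for 4 h, or were non-treated (sgERH_NT, 3 libraries). Cells with a guide against the safe-harbour site AAVS1 served as controls under the same treatments (sgAAVS1_IFNγ, 3 libraries, sgAAVS1_IL-1β, 2 libraries, and sgAAVS1_NT, 2 libraries). The comparisons asked whether each cytokine changed these genes in each guide, and whether ERH targeting changed their levels or their responses.

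IFNγ binds a receptor made of IFNGR1 and IFNGR2 chains, which carry the kinases JAK1 and JAK2. The kinases phosphorylate STAT proteins, which enter the nucleus and bind DNA elements known as GAS, and, with IRF9 and STAT2, ISRE. TYK2 and STAT2 are best known from type I interferon signalling, STAT3 from IL-6 family signalling, and SOCS1 and SOCS3 are induced inhibitors that bind receptor chains or JAK kinases and close the loop. IL-1β signals through another receptor and NF-κB.

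The promoters of 3 of the 4 genes that were higher with IFNγ in sgAAVS1 cells are shown because the data bear on whether those genes move together. The fourth, SOCS3, is not shown because its 2 entries lie 848 and 410 bases from the start of its MANE transcript, the one chosen as representative. All 9 genes had an entry in RefSeq (GRCh38.p14, 16 entries of 250 bases before to 50 bases after a start site). They were searched on both strands for GAS (TTCNNNGAA), which 7.66% of all 35116 such windows hold, and for ISRE (GAAA, any 2 bases, then GAAA), which 3.57% hold. The end of a GAS can overlap the start of an ISRE, but none did in these entries. GAS was in 0 of the 16 entries and ISRE in 1, that of SOCS1, where it began 113 bases before the start. The 2 SOCS3 entries are among the 16 but do not hold the 250 bases before its MANE start, so those bases were not searched. The 16 also hold a JAK1 entry 101197 bases and a JAK2 entry 56260 bases from the MANE start. The 250 bases before the start follow, 5′ to 3′ on the gene's strand, with an ISRE match in capitals, for SOCS1 (chr16:11256205-11256454, − strand), STAT2 (chr12:56360108-56360357, − strand) and STAT3 (chr17:42388443-42388692, − strand). A match is a description of these letters and not a shown binding site.
SOCS1: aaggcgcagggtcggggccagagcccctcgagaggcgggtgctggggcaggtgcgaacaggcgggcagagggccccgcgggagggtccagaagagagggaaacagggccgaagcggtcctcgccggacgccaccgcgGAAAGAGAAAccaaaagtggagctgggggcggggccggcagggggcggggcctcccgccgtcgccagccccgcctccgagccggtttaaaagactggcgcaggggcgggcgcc
STAT2: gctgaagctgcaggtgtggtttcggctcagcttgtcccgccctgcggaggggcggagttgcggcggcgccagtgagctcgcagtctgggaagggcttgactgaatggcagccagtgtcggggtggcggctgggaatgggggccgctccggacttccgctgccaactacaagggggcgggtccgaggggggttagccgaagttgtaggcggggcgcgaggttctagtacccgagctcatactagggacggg
STAT3: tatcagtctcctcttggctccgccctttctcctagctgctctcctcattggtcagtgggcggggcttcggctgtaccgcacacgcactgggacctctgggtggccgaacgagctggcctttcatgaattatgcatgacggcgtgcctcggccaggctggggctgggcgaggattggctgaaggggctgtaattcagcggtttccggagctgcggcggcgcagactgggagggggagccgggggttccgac

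The 15 libraries used held 4987127 to 5986338 reads. Levels are given as CPM, read counts scaled to library size with TMM factors, which were 1.02 to 1.08 in sgERH and 0.916 to 0.967 in sgAAVS1 libraries. ERH itself averaged 298.5 ± 30.8 CPM in sgERH_NT and 636 ± 9.26 CPM in sgAAVS1_NT (SD, n = 3 and 2), but a 3′ end count does not read the Cas9 cut and so does not check the edit. IRF1, an early IFNγ target, averaged 825 ± 64.3 CPM in sgAAVS1_IFNγ and 22.8 ± 1.94 CPM in sgAAVS1_NT (n = 3 and 2). The epithelial markers KRT8, KRT18, EPCAM and CDX2 were present in all 15 libraries, KRT19 and KRT20 had 0 reads, CDH1 and VIL1 had 1 read each, and leukocyte, fibroblast and endothelial markers together summed to at most 0.74 CPM, with PTPRC, COL1A1 and PECAM1 at 0 reads. In the study, 3 libraries were set aside after a principal component analysis, namely sgERH_IFNγ replicate 2, sgAAVS1_IL-1β replicate 3 and sgAAVS1_NT replicate 1. They enter no value below unless stated. Of the libraries used, sgERH_IL-1β replicate 2 stood apart, with a chi-square per degree of freedom of 15 and 18.3 against the other libraries of its group, where the other 10 replicate pairs used had 2.57 to 5.99.

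Gene positions below are in GRCh38, from GENCODE 44, and exon numbers are those of the MANE transcript. Reads were counted in windows at the 3′ ends, so a position names the gene and not the place of each read. The opposite-strand genes RAVER2 and RMI2 overlap the last 1000 bases of JAK1 and SOCS1, and whether the counting used strand is not given in the sources used here.

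**Figure D1:**
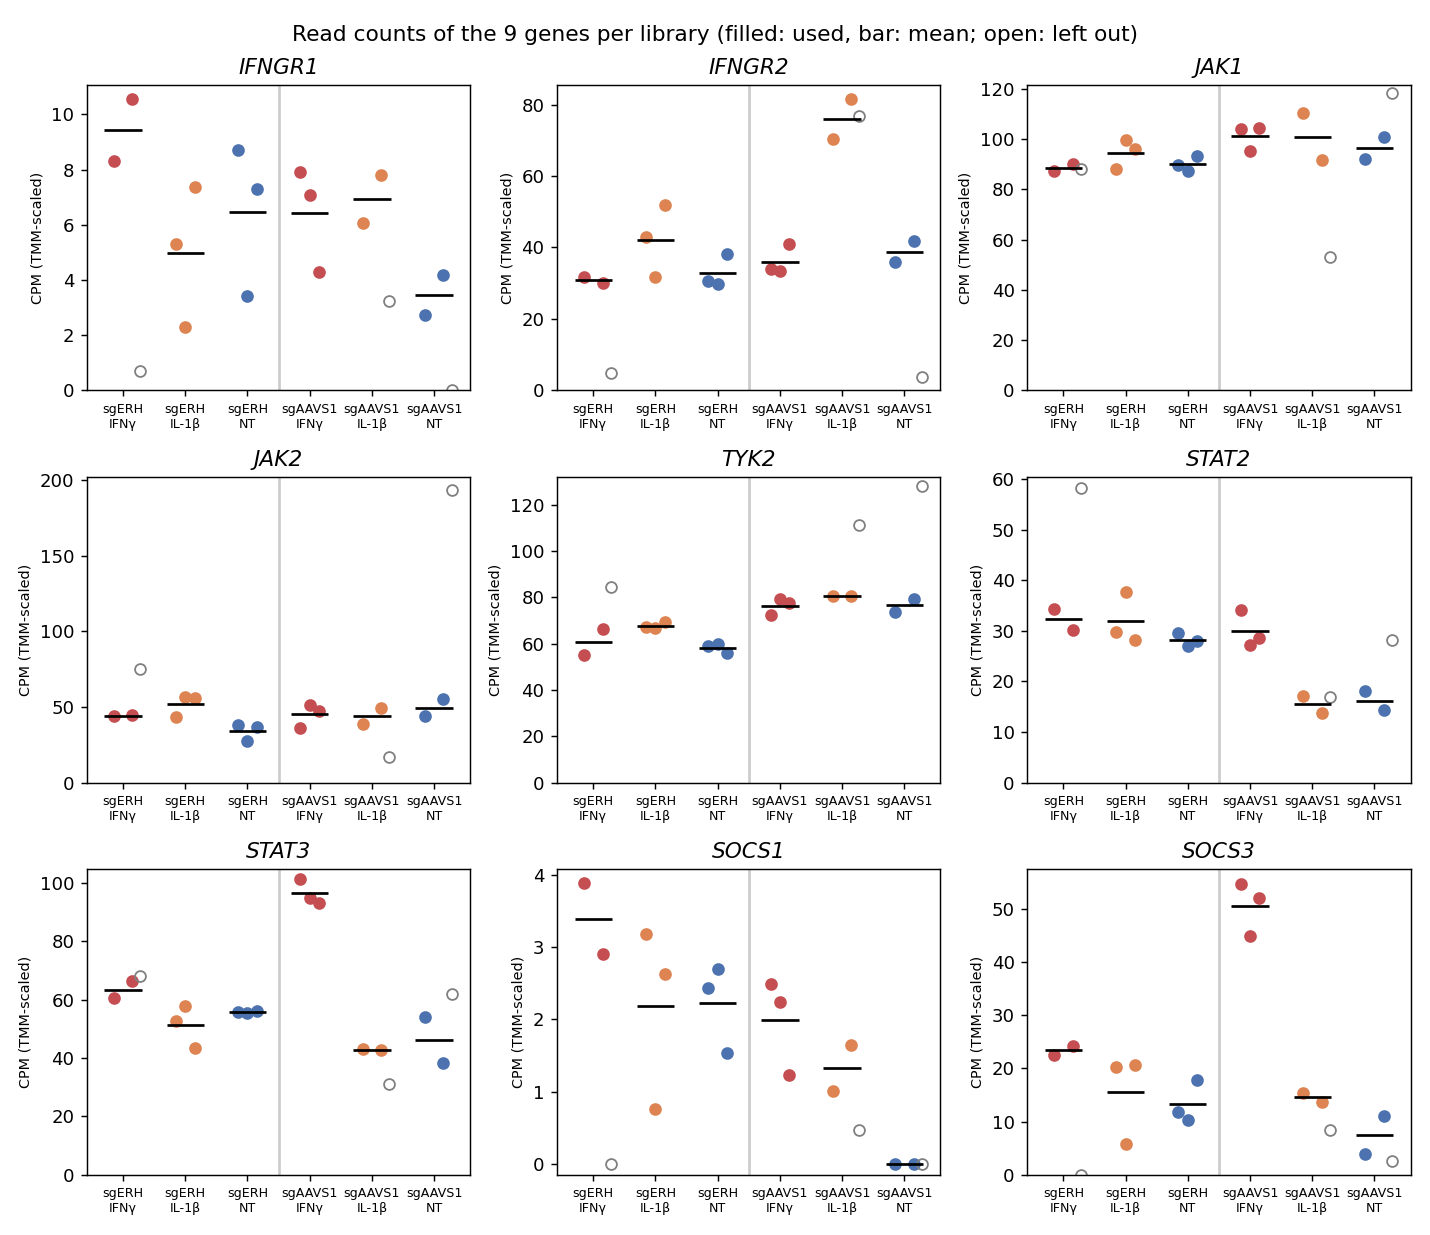
Level of each of the 9 genes in CPM (y axis, TMM-scaled, with a scale for each gene) in every library of the 6 groups (x axis). Filled points are libraries used, bars their means and open circles the libraries left out. STAT3 and SOCS3 lay higher in sgAAVS1_IFNγ than in any other library used, and SOCS1 had 0 reads in sgAAVS1_NT.

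In cells with the control guide, IFNγ raised the STAT and SOCS genes among the 9, and not the receptor or kinase genes, to a degree that passed the test. Throughout, rose, fell and passed refer to edgeR's quasi-likelihood test with p adjusted over all 13370 genes (0.05 or less). Of the 9 genes 4 passed, all of them higher, where 0.98% of all genes passed in either direction and 0.942% were higher. These were both SOCS genes and both STAT genes of the 9, and 3 of them also passed the study's added limit of 1 on the absolute log2 scale, which 0.598% of genes did. The median log2 fold change of the 9 genes was 0.88, the same with SOCS1 set against the floor given below, beside −0.02 over all genes. In 5 of the 9 the libraries of the 2 groups did not overlap, as in 30.6% of all genes.

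SOCS3 (chr17:78356778-78360077, − strand, 2 exons), an inhibitor that acts on JAK kinases and on receptors of the IL-6 family, had 54.6, 44.8 and 52.0 CPM in sgAAVS1_IFNγ, against 3.99 and 11.1 CPM in sgAAVS1_NT. The groups were far apart, and the sgAAVS1_NT libraries differed between themselves more than the treated ones did in ratio. Its log2 fold change was 2.71 ± 0.49 (SE, edgeR adjusted p = 0.0189), or 3.66 without sgAAVS1_NT replicate 3. The call was lost without sgAAVS1_NT replicate 2 (log2 fold change 2.19, edgeR adjusted p = 0.184), without sgAAVS1_IFNγ replicate 1 (2.65, edgeR adjusted p = 0.0614) and without sgAAVS1_IFNγ replicate 3 (2.69, edgeR adjusted p = 0.0551).

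SOCS1 (chr16:11254417-11256204, − strand, 2 exons), the inhibitor that binds JAK kinases directly and limits IFNγ signalling, was counted in few reads. It had 12, 12 and 6 reads (2.49, 2.24 and 1.23 CPM) in sgAAVS1_IFNγ, against 0 and 0 reads in sgAAVS1_NT. Set against a floor of 3 reads over both sgAAVS1_NT libraries (0.292 CPM), it was 6.83-fold higher (edgeR adjusted p = 0.0147). The floor covers only the counting error of sgAAVS1_NT. The counting error of the 30 reads in sgAAVS1_IFNγ is not in it, so the fold is no strict lower bound. The call was lost without sgAAVS1_NT replicate 2 (edgeR adjusted p = 0.184), without sgAAVS1_NT replicate 3 (edgeR adjusted p = 0.231) and without sgAAVS1_IFNγ replicate 1 (edgeR adjusted p = 0.0544).

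STAT3 (chr17:42313324-42388540, − strand, 24 exons), the transcription factor of IL-6 family cytokines, had 101, 95.0 and 93.2 CPM in sgAAVS1_IFNγ, against 54.2 and 38.4 CPM in sgAAVS1_NT. All treated libraries were higher than both non-treated ones and close to each other. The log2 fold change was 1.06 ± 0.15 (edgeR adjusted p = 2.99e-05), and it stayed past the threshold without any 1 of the 15 libraries (0.84 to 1.33, highest edgeR adjusted p = 0.0162).

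STAT2 (chr12:56341597-56360203, − strand, 24 exons), which joins IRF9 in the ISRE-binding complex of type I interferon, had 34.1, 27.2 and 28.7 CPM in sgAAVS1_IFNγ, against 18.1 and 14.3 CPM in sgAAVS1_NT. The groups did not overlap. The log2 fold change was 0.89 ± 0.19 (edgeR adjusted p = 0.0107), lost without sgAAVS1_NT replicate 3 (0.74, edgeR adjusted p = 0.346) and without sgAAVS1_IFNγ replicate 1 (0.79, edgeR adjusted p = 0.0818). In the fit of all 18 libraries, in which 23 genes passed, 0 of the 9 did, with log2 fold changes of 3.08 for SOCS3, 0.97 for STAT3 and 0.65 for STAT2.

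The receptor and kinase genes gave small or imprecise values in the same comparison. JAK1 (chr1:64833223-65067754, − strand, 25 exons), the kinase on the IFNGR1 chain, averaged 101 ± 5.20 CPM in sgAAVS1_IFNγ and 96.4 ± 6.27 CPM in sgAAVS1_NT, a log2 fold change of 0.07 ± 0.12. JAK2, the kinase on the IFNGR2 chain, averaged 45.1 ± 7.78 CPM in sgAAVS1_IFNγ and 49.5 ± 7.68 CPM in sgAAVS1_NT (−0.14 ± 0.17). TYK2 (chr19:10350533-10380608, − strand, 25 exons), the kinase of the type I interferon receptor, was at 76.4 ± 3.47 CPM in sgAAVS1_IFNγ and 76.6 ± 4.06 CPM in sgAAVS1_NT, which is the closest agreement among the 9 genes in this comparison (0.00 ± 0.12). IFNGR2 averaged 36.1 ± 4.23 CPM in sgAAVS1_IFNγ and 38.8 ± 4.11 CPM in sgAAVS1_NT (−0.11 ± 0.18). IFNGR1 (chr6:137197483-137219449, − strand, 7 exons), the ligand-binding chain, rested on 13 to 38 reads per library, and its 0.88 ± 0.44 did not pass (edgeR adjusted p = 0.544), although its libraries did not overlap between the groups.

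With the ERH guide, IFNγ at that dose moved 0 of the 9 genes past the threshold by edgeR, where 0.0299% of all genes passed. At an unadjusted p under 0.05 there was 1 of the 9, JAK2, beside 888 of all 13370 genes. DESeq2 passed 0 of the 9, beside 12 of all genes. The median log2 fold change of the 9 was 0.19, beside 0.01 over all genes. SOCS3 had 22.6 and 24.2 CPM in sgERH_IFNγ, against 11.8, 10.3 and 17.9 CPM in sgERH_NT. Both treated libraries were above the 3 non-treated ones, and the log2 fold change of 0.81 ± 0.44 did not pass (edgeR adjusted p = 0.785). STAT3 had 60.5 and 66.3 CPM in sgERH_IFNγ, against 55.7, 55.5 and 56.1 CPM in sgERH_NT (0.18 ± 0.14, edgeR adjusted p = 0.843). STAT2 had 34.4 and 30.2 CPM in sgERH_IFNγ, against 29.6, 27.0 and 28.1 CPM in sgERH_NT (0.19 ± 0.17, edgeR adjusted p = 0.872). Neither STAT gene overlapped between its 2 groups, and both steps were small beside those in sgAAVS1 cells. SOCS1 had 21 and 16 reads in sgERH_IFNγ, against 14, 15 and 9 reads in sgERH_NT (0.61 ± 0.53). In all, 5 of the 9 did not overlap, as in 28.6% of all genes.

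**Figure D2:**
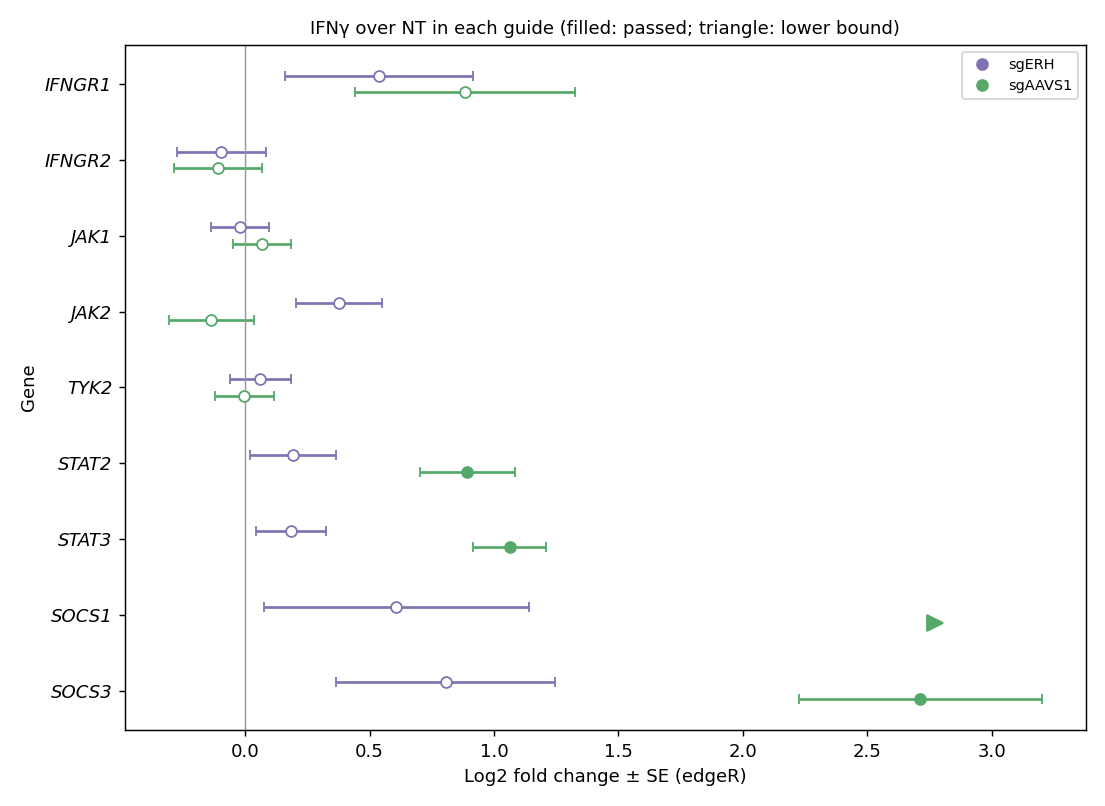
Log2 fold change of IFNγ over NT with its SE (x axis) for each of the 9 genes (y axis), in sgERH above and sgAAVS1 below. Filled symbols passed at an adjusted p of at most 0.05. The triangle, labelled lower bound, is SOCS1 set against the floor of 3 reads (2.77), since SOCS1 had 0 reads in sgAAVS1_NT. It leaves out the counting error of the treated group. The 4 filled symbols all belong to sgAAVS1 and to STAT or SOCS genes.

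The difference between the guides in the IFNγ response was tested as such, by an interaction term. It passed for 0 of the 9 genes by edgeR, where 0.247% of all genes passed. At an unadjusted p under 0.05 there were 5 of the 9 (JAK2, STAT2, STAT3, SOCS1 and SOCS3), beside 781 of all 13370 genes. These did not share a direction. For JAK2 the value was higher in sgERH (0.51 ± 0.24, edgeR adjusted p = 0.831), and for STAT2, STAT3, SOCS1 and SOCS3 it was lower. The SOCS1 difference rests on the 0 reads in sgAAVS1_NT, so no size is given for it. DESeq2 passed 1 of the 9, beside 38 of all genes. STAT3 came nearest, with −0.88 ± 0.20 (edgeR adjusted p = 0.0686, and DESeq2 adjusted p = 0.0248). SOCS3 differed by −1.91 ± 0.66 (edgeR adjusted p = 0.680) and STAT2 by −0.70 ± 0.26 (edgeR adjusted p = 0.645). Without sgERH_IL-1β replicate 2, which belongs to neither response but enters the shared spread, STAT3 (edgeR adjusted p = 0.0034) and SOCS3 (edgeR adjusted p = 0.00175) passed, at −0.90 and −1.92. They also passed when only the 4 groups compared were fitted (edgeR adjusted p = 0.00328 for STAT3 and 0.0117 for SOCS3). STAT3 passed as well without sgAAVS1_NT replicate 2 (−1.14, edgeR adjusted p = 0.0197) and without sgERH_IL-1β replicate 3 (−0.88, edgeR adjusted p = 0.0244). SOCS3 ranged over −2.86 to −1.38 between the fits without sgAAVS1_NT replicate 3 and without sgAAVS1_NT replicate 2. The median difference of the 9 was −0.35, beside 0.01 over all genes.

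The lower level of STAT3 under IFNγ in sgERH cells was also seen between the guides directly. It averaged 63.4 ± 4.11 CPM in sgERH_IFNγ and 96.5 ± 4.20 CPM in sgAAVS1_IFNγ (n = 2 and 3), and fell in sgERH, at −0.61 ± 0.14 on the log2 scale (edgeR adjusted p = 0.00222). Without sgERH_IFNγ replicate 1 the adjusted p was 0.0548 by edgeR. SOCS3 averaged 23.4 ± 1.13 CPM in sgERH_IFNγ and 50.5 ± 5.10 CPM in sgAAVS1_IFNγ, without overlap. Its −1.11 ± 0.42 did not pass (edgeR adjusted p = 0.0764), but did without sgERH_IL-1β replicate 2 (edgeR adjusted p = 8.41e-05), sgAAVS1_NT replicate 2 (edgeR adjusted p = 0.0460) or sgAAVS1_NT replicate 3 (edgeR adjusted p = 0.0410), with only the groups compared (−1.12, edgeR adjusted p = 2.64e-07) and with no filter on low counts (edgeR adjusted p = 0.0208). TYK2 averaged 60.7 ± 7.91 CPM in sgERH_IFNγ and 76.4 ± 3.47 CPM in sgAAVS1_IFNγ and fell, at −0.33 ± 0.12 on the log2 scale (edgeR adjusted p = 0.0449), a call that was lost in 10 of the 15 fits that left out 1 library and with no filter on low counts (edgeR adjusted p = 0.0849). So 2 of the 9 genes passed, both lower and neither past the fold limit, where 25% of all genes passed, 12.6% were lower and 7.61% were past the limit too. In 7 of the 9 the libraries did not overlap, as in 54.7% of all genes. The other 6 had values of −0.23 to 0.76 and did not pass.

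Without cytokine, STAT2 and SOCS1 were higher, and JAK2 and TYK2 lower, in sgERH than in sgAAVS1 cells. These 4 of 9 passed, beside 26.1% of all genes (12.4% higher and 13.7% lower). At the fold limit 1 was left, SOCS1, beside 8.24% of all genes, and 5 of 9 did not overlap, as in 54.2%. The median log2 fold change of the 9 was 0.27, the same with SOCS1 set against the floor, beside 0.04 over all genes. STAT2 had 29.6, 27.0 and 28.1 CPM in sgERH_NT, against 18.1 and 14.3 CPM in sgAAVS1_NT. It rose, at 0.81 ± 0.19 on the log2 scale (edgeR adjusted p = 0.00219), lost without sgAAVS1_NT replicate 3 (0.64, edgeR adjusted p = 0.0765). All sgERH_NT libraries thus lay near the level of sgAAVS1_IFNγ, which averaged 30.0 ± 3.60 CPM. SOCS1 had 14, 15 and 9 reads in sgERH_NT, against 0 and 0 reads in sgAAVS1_NT, and was 7.57-fold higher against the same floor (edgeR adjusted p = 8.00e-04). This held without any 1 library (highest edgeR adjusted p = 0.0182).

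JAK2 had 37.9, 27.8 and 36.6 CPM in sgERH_NT, against 44.1 and 54.9 CPM in sgAAVS1_NT. The groups did not overlap but stood close, and JAK2 fell, at −0.54 ± 0.17 (edgeR adjusted p = 0.0206). The call was lost without sgAAVS1_NT replicate 3 (−0.38, edgeR adjusted p = 0.266) and without sgERH_NT replicate 2 (−0.41, edgeR adjusted p = 0.107). The left-out sgAAVS1_NT replicate 1 held 193 CPM of JAK2, and with all 18 libraries the value was −1.43 (edgeR adjusted p = 0.0757). The fall of JAK2 was seen in NT only. Between the guides JAK2 did not pass under IFNγ (−0.03 ± 0.17, edgeR adjusted p = 0.93) or under IL-1β (0.24 ± 0.17, edgeR adjusted p = 0.318). Averaged over the 3 treatments it did not pass either (−0.11 ± 0.10, edgeR adjusted p = 0.386). TYK2 had 59.0, 59.7 and 55.9 CPM in sgERH_NT, against 73.7 and 79.4 CPM in sgAAVS1_NT. It fell, at −0.40 ± 0.12 on the log2 scale (edgeR adjusted p = 0.0149), lost without sgAAVS1_NT replicate 3 (edgeR adjusted p = 0.139) and without sgERH_NT replicate 3 (edgeR adjusted p = 0.0512). JAK1 averaged 89.9 ± 3.01 CPM in sgERH_NT and 96.4 ± 6.27 CPM in sgAAVS1_NT (−0.10 ± 0.12, edgeR adjusted p = 0.566). SOCS3 at 0.80 ± 0.51 and IFNGR1 at 0.90 ± 0.44 were higher in sgERH_NT by mean, but their libraries overlapped with those of sgAAVS1_NT and neither passed. Each passed in 1 of the 15 fits that left out 1 library, SOCS3 without sgERH_IL-1β replicate 2 (edgeR adjusted p = 0.0237) and IFNGR1 without sgERH_NT replicate 2 (edgeR adjusted p = 0.0454), and so did STAT3 without sgAAVS1_NT replicate 2 (0.54, edgeR adjusted p = 0.0387).

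Averaged over the 3 treatments, 4 of the 9 genes passed, beside 48.7% of all genes (25.5% higher and 23.2% lower), and 1 of them, SOCS1, at the fold limit, beside 8.89%. STAT2 rose in sgERH (0.65 ± 0.11, edgeR adjusted p = 1.20e-05), as did SOCS1 (edgeR adjusted p = 2.80e-04), for which no fold is given because sgAAVS1_NT had no reads. TYK2 (−0.33 ± 0.07, edgeR adjusted p = 3.04e-04) and IFNGR2 (−0.44 ± 0.10, edgeR adjusted p = 6.99e-04) fell. The 4 calls held without any 1 library. With all 18 libraries the IFNGR2 call was lost (−0.43, edgeR adjusted p = 0.431). In TYK2 all 8 sgERH libraries, at 55.1 to 69.1 CPM with a median of 63.0, lay below all 7 sgAAVS1 libraries, at 72.5 to 80.7 CPM with a median of 79.1. The share of all genes that separate the guides in this way was not counted. Within a single treatment 49.8% to 54.7% of all genes did not overlap between the guides, so nothing particular to TYK2 is read from this. The summed level of the 9 epithelial markers also moved with the guide, at 101 to 124 CPM in sgERH and 127 to 157 CPM in sgAAVS1 libraries. The markers did not move as one. KRT18 averaged 57.9 CPM in sgERH_NT and 108.7 CPM in sgAAVS1_NT, while EPCAM averaged 16.8 CPM in sgERH_NT and 5.95 CPM in sgAAVS1_NT. CDX2 averaged 11.3 CPM in sgERH_NT and 9.20 CPM in sgAAVS1_NT, a smaller gap than its 13.8 CPM in sgERH_IFNγ and 6.99 CPM in sgAAVS1_IFNγ. The part of the markers in the differences of the 9 genes was not tested. In such bulk samples fewer cells of a type and less RNA per cell cannot be told apart.

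**Figure D3:**
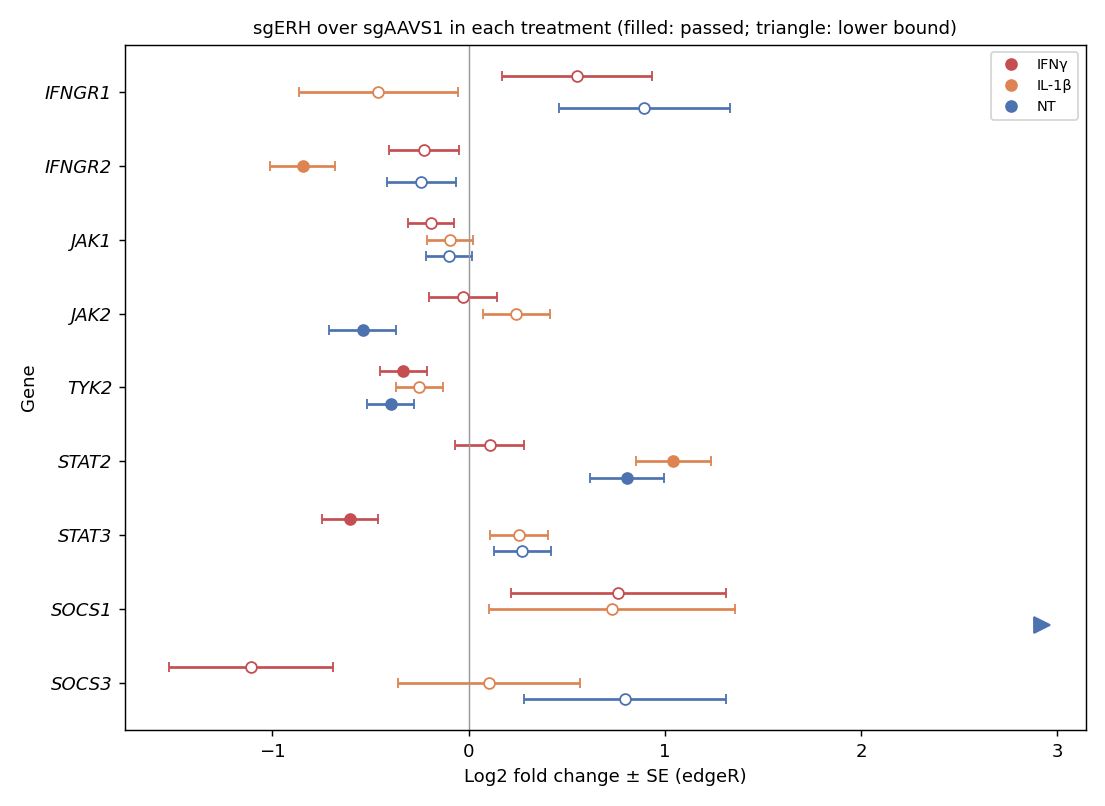
Log2 fold change of sgERH over sgAAVS1 with its SE (x axis) for each of the 9 genes (y axis), under IFNγ, under IL-1β and in NT from top to bottom. Filled symbols passed at an adjusted p of at most 0.05. The triangle, labelled lower bound, is SOCS1 in NT set against the floor of 3 reads (2.92), without the counting error of sgERH_NT. STAT2 was higher in sgERH under IL-1β and in NT but at 0.11 under IFNγ, and STAT3 was lower in sgERH under IFNγ only among the tests that passed.

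IL-1β left 8 of the 9 genes without a call in sgAAVS1 cells. The exception was IFNGR2, the signalling chain of the IFNγ receptor, so that 1 of 9 passed, beside 0.92% of all genes (0.838% higher). It was short of the fold limit, which 0.636% passed, and 5 of 9 did not overlap, as in 47.8%. It had 70.2 and 81.6 CPM in sgAAVS1_IL-1β, against 35.9 and 41.7 CPM in sgAAVS1_NT. The treated libraries were both far above the non-treated ones, and the left-out sgAAVS1_IL-1β replicate 3 stood at 76.7 CPM. The log2 fold change was 0.97 ± 0.19 (edgeR adjusted p = 0.00632), lost without sgAAVS1_NT replicate 2 (0.87, edgeR adjusted p = 0.169), without sgAAVS1_NT replicate 3 (1.07, edgeR adjusted p = 0.0504) and without sgAAVS1_IL-1β replicate 2 (0.86, edgeR adjusted p = 0.208). IFNGR1 averaged 6.92 ± 1.23 CPM in sgAAVS1_IL-1β and 3.45 ± 1.02 CPM in sgAAVS1_NT (0.99 ± 0.47, edgeR adjusted p = 0.390). SOCS1 had 5 and 8 reads in sgAAVS1_IL-1β, against 0 and 0 reads in sgAAVS1_NT (4.53-fold higher against the floor, which did not pass, edgeR adjusted p = 0.0728, or 0.0166 without sgERH_IL-1β replicate 2). The median log2 fold change of the 9 was 0.07, the same with SOCS1 set against the floor, beside −0.02 over all genes.

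In sgERH cells IL-1β passed for 0 of the 9 by edgeR, beside 0.957% of all genes. At an unadjusted p under 0.05 there were 2 of the 9 (IFNGR2 and JAK2), beside 1869 of all 13370 genes. DESeq2 passed 1 of the 9, beside 192 of all genes. JAK2 had 43.3, 56.4 and 56.1 CPM in sgERH_IL-1β, against 37.9, 27.8 and 36.6 CPM in sgERH_NT. The groups did not overlap, and the value of 0.61 ± 0.15 lay at the threshold (edgeR adjusted p = 0.0522, DESeq2 adjusted p = 0.0387, and edgeR adjusted p = 0.126 with only reads that were not multimapping). It passed with no filter on low counts (edgeR adjusted p = 0.00373), without sgAAVS1_IFNγ replicate 1 (edgeR adjusted p = 0.0435) and without sgERH_IL-1β replicate 1 (edgeR adjusted p = 0.0194). In 2 of the 9, JAK2 and TYK2, the groups did not overlap, as in 16.3% of all genes. IFNGR2 had 43.0, 31.6 and 51.9 CPM in sgERH_IL-1β, against 30.6, 29.9 and 38.1 CPM in sgERH_NT, with overlap (0.36 ± 0.16, edgeR adjusted p = 0.287). SOCS3 had 20.2, 5.72 and 20.7 CPM in sgERH_IL-1β, where replicate 2 is the low one, against 11.8, 10.3 and 17.9 CPM in sgERH_NT (0.23 ± 0.41). The median log2 fold change of the 9 was 0.17, beside 0.01 over all genes.

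The difference between the guides in the IL-1β response passed for 0 of the 9 by edgeR and by DESeq2. At an unadjusted p under 0.05 there were 4 of the 9, beside 1487 of all 13370 genes. The adjusted test passed 0% of all genes by edgeR. That count over all genes was 129 when genes of low counts were kept, 2 by DESeq2, 274 without sgERH_IL-1β replicate 3 and 9 without replicate 2 of that group. JAK2 gave 0.78 ± 0.24 (edgeR adjusted p = 0.303) and IFNGR2 −0.60 ± 0.24 (edgeR adjusted p = 0.390). Under IL-1β itself, 2 of the 9 differed between the guides, 1 higher and 1 lower, beside 26.5% of all genes (13.3% and 13.1%). STAT2 was past the fold limit, as were 8.48% of all genes, and 4 of 9 did not overlap, as in 49.8%. STAT2 had 29.7, 37.7 and 28.2 CPM in sgERH_IL-1β, against 17.2 and 13.7 CPM in sgAAVS1_IL-1β. It rose, at 1.04 ± 0.19 on the log2 scale (edgeR adjusted p = 1.79e-04), the largest of its 3 differences between the guides, and the call held without any 1 library and with all 18. IFNGR2 averaged 42.2 ± 10.2 CPM in sgERH_IL-1β and 75.9 ± 8.03 CPM in sgAAVS1_IL-1β. It fell, at −0.84 ± 0.17 on the log2 scale (edgeR adjusted p = 3.85e-04). With all 18 libraries that call was lost (−0.85, edgeR adjusted p = 0.515).

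**Figure D4:**
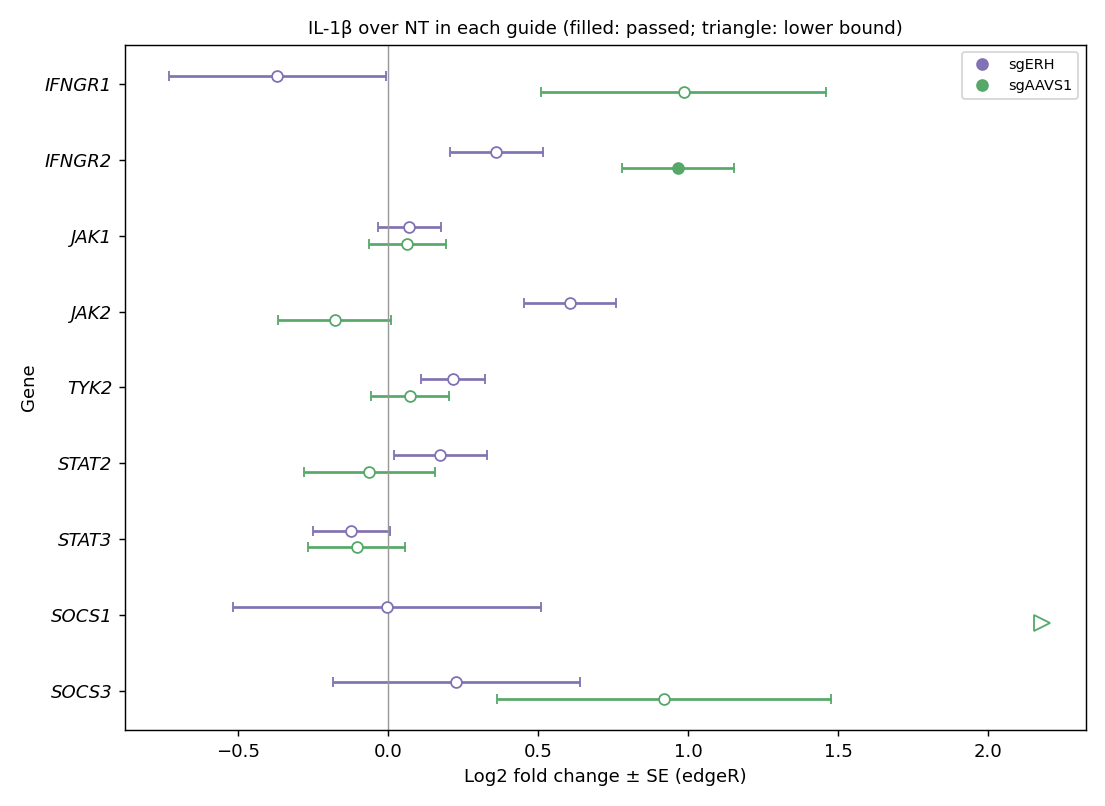
Log2 fold change of IL-1β over NT with its SE (x axis) for each of the 9 genes (y axis), in sgERH above and sgAAVS1 below. The filled symbol, IFNGR2 in sgAAVS1, is the only one that passed, and the open triangle is the lower bound of SOCS1 (2.18), which did not pass.

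The IFNGR2 values rest on reads that the authors' tables count as multimapping, that is, aligned to more than 1 place. Of the 3296 IFNGR2 reads in the 15 libraries, 99.0% were multimapping (96.5% to 100% per library), and 0 to 6 reads per library were not. The share was 98.9% to 99.2% in sgAAVS1_IL-1β and 96.5% to 98.3% in sgAAVS1_NT, so the reads that rose were of this kind. With only the other reads, IFNGR2 did not pass the filter and could not be tested. Of all genes tested 7.3% had a share over 90%. IFNGR2 (ENSG00000159128.16, + strand, chr21:33403413-33479348 in GRCh38) has 7 exons, and the last 1000 bases of its transcript, at the 3′ end that these reads come from, matched a second place in the hg38 sequence over 100% of their length at an identity of at least 98%. That place is on an alternative contig of chromosome 21, which repeats the same locus, and on the chromosomes themselves 0% matched elsewhere. Whether the genome the authors aligned to held this contig is not given in the sources used here. The annotated gene TMEM50B, on the opposite strand, overlaps the same 1000 bases.

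JAK2 (ENSG00000096968.14, + strand, chr9:4984390-5129948) had the next highest share, 13.5% of 3557 reads (7.92% to 19.5% per library). It was 12.1% in sgERH_NT and 12.7% in sgAAVS1_NT over the pooled reads, and 15.7% in sgERH_IL-1β. The JAK2 calls had the same outcome with only the other reads. The search found 0% of its last 1000 bases elsewhere, while INSL6 on the opposite strand overlaps them. Of the remaining genes SOCS3 had 0.695% multimapping reads and the other 6 at most 0.0659%. STAT2 held a match of 12.2% of its last 1000 bases on several chromosomes, yet had 1 multimapping read among 2131.

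**Figure D5:**
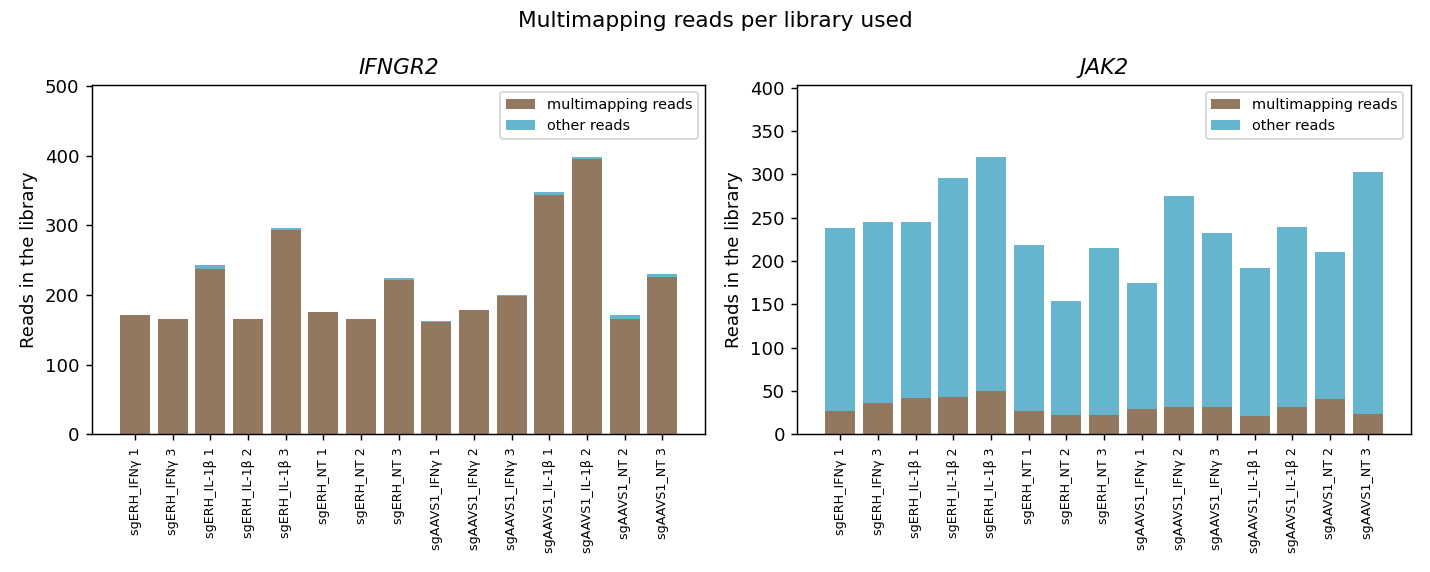
Reads of IFNGR2 (left) and JAK2 (right) in each of the 15 libraries used (y axis, number of reads), split into multimapping reads and others. Nearly the whole of every IFNGR2 bar is multimapping, 99.0% over all libraries, against 13.5% for JAK2.

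The order of the group means differed between the genes. STAT3 and SOCS3 were highest in sgAAVS1_IFNγ, with sgERH_IFNγ next, and the lead of sgAAVS1_IFNγ exceeded the spread of both groups. STAT2 was highest in sgERH_IFNγ, sgERH_IL-1β, sgAAVS1_IFNγ and sgERH_NT, at 27.0 to 37.7 CPM, where each group overlapped with the next in this order, and lowest in sgAAVS1_NT and sgAAVS1_IL-1β, at 13.7 to 18.1 CPM. SOCS1 was highest in the 3 sgERH groups by mean, at 3.40, 2.22 and 2.19 CPM under IFNγ, in NT and under IL-1β. The libraries of sgERH_IFNγ lay above those of sgERH_NT, which overlapped with those of sgERH_IL-1β. IFNGR2 was highest in sgAAVS1_IL-1β, beyond the spread of every other group, and the other 5 groups overlapped in part, at 29.9 to 51.9 CPM. JAK2 was highest by mean in sgERH_IL-1β and lowest in sgERH_NT, at 27.8 to 37.9 CPM, and neighbouring groups overlapped except sgERH_NT and the next by mean, sgAAVS1_IL-1β, whose lowest library had 38.8 CPM. TYK2 was higher in every sgAAVS1 library than in every sgERH library, a separation whose share over all genes was not counted. JAK1 kept within 87.2 to 110.2 CPM over all 15 libraries, and IFNGR1 was highest by mean in sgERH_IFNγ and lowest in sgAAVS1_NT. The sgERH_IFNγ libraries of IFNGR1, at 8.32 and 10.5 CPM, lay above those of the next group, sgAAVS1_IL-1β, at 6.06 and 7.79 CPM, and the other neighbouring groups overlapped.

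As a description over the 15 libraries, which share 6 groups and their depths, the genes whose log2 CPM were most like each gene's are named by Pearson's r. For STAT2 these were SP100 (0.96) and PHF11 (0.93), and HLA-C (0.94), whose reads were all multimapping. For STAT3 they included NLRC5 (0.95) and ZC3HAV1 (0.93). For SOCS3 they included DYRK4 (0.92) and PARP9 (0.91). For TYK2 they were NPDC1, SPAG5 and TOMM40, each at 0.92, and for JAK2 PBLD (0.93, at 1.40 CPM), BSCL2 (0.81) and SIRT3 (0.81). IFNGR2 was most like RBM26 (0.85), BIRC2 (0.85) and AREL1 (0.85), JAK1 like SMC5 (0.85), CEP78 (0.84) and WDR74 (0.83), IFNGR1 like ERLIN1 (0.90), YIPF4 (0.89) and CHUK (0.89), and SOCS1 like NHEJ1 (0.92), RBM27 (0.90) and RYBP (0.90). Among the 9 genes themselves the highest r was 0.67, between SOCS3 and STAT3, and the lowest −0.69, between IFNGR2 and STAT2.

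Of 44 other genes of the pathway (ligands, receptor chains, other JAK, STAT and SOCS genes, phosphatases, adaptors, PIAS proteins and IRF9) 33 were tested. With IFNγ in sgAAVS1 1 rose and 1 fell, beside 0.98% of all genes that passed, and the median log2 fold change was 0.06. The one that rose was IRF9, the DNA-binding partner of STAT2, at 27.4 ± 2.20 CPM in sgAAVS1_IFNγ and 3.08 ± 1.28 CPM in sgAAVS1_NT (3.16 ± 0.33, edgeR adjusted p = 3.48e-07). In sgERH it averaged 14.9 ± 4.08 CPM in sgERH_IFNγ and 6.66 ± 1.87 CPM in sgERH_NT and did not pass (1.15 ± 0.28, edgeR adjusted p = 0.268). IRF9 was the 1 gene of the list whose IFNγ response differed between the guides (−2.01 ± 0.45, edgeR adjusted p = 0.0441), beside 0.247% of all genes. Without cytokine it stood higher in sgERH (1.13 ± 0.36, edgeR adjusted p = 0.0210). Of the other JAK and STAT genes listed, 0 of the 3 tested passed with IFNγ in sgAAVS1, at a median log2 fold change of 0.00. Of the other SOCS genes and CISH, 0 of the 5 tested passed there, at a median of −0.22.

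IL-1β raised 2 of the 33 in sgAAVS1, beside 0.838% of all genes, of which IL6ST, the shared receptor chain of the IL-6 family, passed the fold threshold. It averaged 35.7 ± 4.28 CPM in sgAAVS1_IL-1β and 12.5 ± 1.98 CPM in sgAAVS1_NT (1.52 ± 0.28, edgeR adjusted p = 0.00494). Between the guides in NT 5 of 33 rose and 4 fell in sgERH, beside 26.1% of all genes that passed, under IFNγ 2 rose and 6 fell, beside 25%, and under IL-1β 2 rose and 2 fell, beside 26.5%. Nothing particular to the list is read from these counts. IL11, an IL-6 family cytokine, was higher in sgERH in each treatment, with 156.3 to 162.3 CPM in sgERH_NT and 34.9 and 43.3 CPM in sgAAVS1_NT (2.02 ± 0.13, edgeR adjusted p = 1.77e-11). CLCF1, another cytokine of that family, and IFNLR1, a chain of the type III interferon receptor, also rose in sgERH_NT over sgAAVS1_NT (1.88 ± 0.42 and 1.55 ± 0.51, edgeR adjusted p = 0.00147 and 0.0235). IFNAR1, a chain of the type I interferon receptor, averaged 28.9 ± 4.04 CPM in sgERH_IFNγ and 59.8 ± 2.90 CPM in sgAAVS1_IFNγ and fell, at −1.05 ± 0.15 on the log2 scale (edgeR adjusted p = 8.12e-06). SOCS2 rose under IFNγ in sgERH over sgAAVS1 (1.28 ± 0.40, edgeR adjusted p = 0.0187) at low levels, with 5.86 CPM in sgERH_IFNγ and 2.40 CPM in sgAAVS1_IFNγ.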

How the data were processed

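Transcript 3′ ends were sequenced in 18 libraries, 3 per group. FastQC 0.11.8 and Trim Galore 0.6.2 are named in the submitters' notes on processing. The authors used SlamDunk to map and count reads over 3′ end windows, and gave 1 value for each gene symbol. The deposited values used are whole-number read counts, not normalized, and counts of multimapping reads. Such counts record 3′ ends, not splicing or protein. The labels call replicates biological but name no separate cultures, and p-values therefore reflect sample-to-sample spread that may be technical. No molecular identifiers are named for these libraries, so the floor below covers only the counting error of the group with 0 reads.

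The 15 libraries that the study kept were fitted as 1 model of 6 groups with edgeR 4.0.16 in R 4.3.3 (TMM factors, filterByExpr, robust quasi-likelihood F test, Benjamini-Hochberg adjustment over 13370 genes). The 10 comparisons were the IFNγ and the IL-1β response within either guide, sgERH over sgAAVS1 per treatment and averaged, and the guide difference in both responses. The comparisons share their sgAAVS1_NT or sgERH_NT libraries. Errors are SD for CPM and SE for log2 fold changes. A fold against a group with 0 reads used a floor of 3 reads over the group. The pooled level of the other group was divided by that floor without its own counting error, so the fold is no strict lower bound.

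Alternatives were all 18 libraries, DESeq2 1.42.0, its size factors in edgeR, no filter on low counts, only reads that were not multimapping, a replicate block, only the groups compared, the study's fold threshold and leaving out each library. Replicate numbers did not pair the libraries (correlations of deviations −0.06 to 0.14 over 30 pairs). Gene positions are from GENCODE 44, promoters from RefSeq, and 3′ ends were searched with BLAST+ (matches of at least 50 bases). All 9 genes, ERH and IRF1 were named, as were other pathway genes past the fold threshold (up to 4 per comparison). The genes and lists were chosen with earlier results of these data known. Some genes of the pathway are not reported here.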

Additional observations from a re-analysis of the deposited data

Results flagged for a closer look

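In sgAAVS1_IL-1β replicate 3 and sgERH_IFNγ replicate 2, which the study left out, some genes lay above the highest non-treated library used of the same guide. The other left-out library, sgAAVS1_NT replicate 1, is itself non-treated and was not compared in this way. In sgAAVS1_IL-1β replicate 3 IFNGR2 stood at 76.7 CPM (808 reads), against 41.7 CPM in the highest sgAAVS1_NT library, TYK2 at 111 CPM against 79.4 CPM, and SOCS1 at 0.474 CPM (5 reads) against 0 reads. In sgERH_IFNγ replicate 2 JAK2 stood at 75.4 CPM, against 37.9 CPM in the highest sgERH_NT library. TYK2 stood there at 84.4 CPM against 59.7 CPM, STAT2 at 58.2 CPM against 29.6 CPM, and STAT3 at 68.0 CPM against 56.1 CPM. These 4 also lay above both libraries used of its group, beside 44.1% of all genes. The 4 below both were IFNGR1 (0.715 CPM), IFNGR2 (4.77 CPM), SOCS1 (0 reads) and SOCS3 (0 reads), beside 45.9% of all genes. In the same sgAAVS1_IL-1β library 6 of the 9 genes lay below both libraries used of its group, among them JAK1 at 53.1, JAK2 at 16.9 and STAT3 at 31.2 CPM, and 1, TYK2, lay above both, beside 42.1% and 43.3% of all genes. These are single libraries with no test, and sgAAVS1_IL-1β replicate 3 held 11821239 reads.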

How the results depend on the processing

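The count of the 9 genes that passed moved with the setting as follows, and no value of a called gene changed sign. With all 18 libraries it was 0 for IFNγ in sgAAVS1, 0 for IL-1β in sgAAVS1, 0 for sgERH against sgAAVS1 under IFNγ, and 1 under IL-1β and 1 in NT. With no filter on low counts it was 2 for IL-1β in sgAAVS1, 1 for IL-1β in sgERH and 1 for the guide difference in the IFNγ response. With only reads that were not multimapping it was 0 for IL-1β in sgAAVS1 and 1 for sgERH against sgAAVS1 under IL-1β, since IFNGR2 was no longer tested. DESeq2 gave 1 for IL-1β in sgERH and 1 for the guide difference in the IFNγ response, a replicate block gave 1 for that difference, and fitting only the groups compared gave 2. At the study's fold threshold the counts were 0 for IL-1β in sgAAVS1, 0 for sgERH against sgAAVS1 under IFNγ, and 1 under IL-1β, 1 in NT and 1 on average. Leaving out 1 library at a time gave 1 to 4 for IFNγ in sgAAVS1, 0 to 2 for IL-1β in sgAAVS1, 0 to 1 for IL-1β in sgERH, 0 to 2 for the guide difference in the IFNγ response, and for sgERH against sgAAVS1 1 to 5 in NT, 0 to 3 under IFNγ, 2 to 2 under IL-1β and 4 to 5 on average. The lowest counts came without sgAAVS1_IFNγ replicate 1, without sgAAVS1_NT replicate 3 in NT and without sgERH_IFNγ replicate 1 under IFNγ. The replicate block changed 3 of 90 gene calls, though no pairing by replicate number was detected. With it SOCS3 passed for the guide difference in the IFNγ response (−2.16, edgeR adjusted p = 0.0231). SOCS3 also passed for sgERH against sgAAVS1 under IFNγ (−1.36, edgeR adjusted p = 8.09e-04), and TYK2 no longer did there (edgeR adjusted p = 0.0603). Over all genes the counts that passed also moved, for example with all 18 libraries to 23 for IFNγ in sgAAVS1 (131 with 15) and to 892 for sgERH against sgAAVS1 in NT (3494 with 15), with DESeq2 to 233 for IL-1β in sgAAVS1 (123 with edgeR), and with no filter to 36 for IFNγ in sgERH (4 with it). Leaving out 1 library gave 19 to 713 genes for IL-1β in sgAAVS1, the ends without sgAAVS1_NT replicate 2 and sgERH_IL-1β replicate 2. DESeq2's size factors in edgeR changed 0 of 90. The cause was not tested. Groups of 2 or 3 libraries and reads of 0 to 58 for SOCS1 and IFNGR1 limit what can be seen.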

Other observations

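The library used that stood apart and 2 of those left out placed these genes alike in part. In sgERH_IL-1β replicate 2, IFNGR1, IFNGR2, TYK2, SOCS1 and SOCS3 were below and JAK1, JAK2, STAT2 and STAT3 above both other libraries of the group (5 and 4 of the 9 genes, beside 40.4% and 40% of all genes tested). In sgERH_IFNγ replicate 2, IFNGR1, IFNGR2, SOCS1 and SOCS3 were below and JAK2, TYK2, STAT2 and STAT3 above the other libraries of its group (4 and 4, beside 45.9% and 44.1%). In sgAAVS1_NT replicate 1, IFNGR1, IFNGR2 and SOCS3 were below and JAK1, JAK2, TYK2, STAT2 and STAT3 above theirs (3 and 5, beside 48.6% and 43.8%). In all 3, IFNGR1, IFNGR2 and SOCS3 were below and JAK2, STAT2 and STAT3 above, while TYK2 was below in the first and above in the others. The share of all genes on the same side in all 3 libraries was not counted. Nothing particular to the 9 genes is read from this. These 3 libraries had the highest shares of multimapping reads of all 18, at 23.2%, 24.0% and 26.3% of their reads. SOCS3, for example, had 5.72 CPM in the first of them, 0 reads in the second and 2.59 CPM in the third, while JAK2 had 56.4, 75.4 and 193 CPM. The part of RNA quality or library preparation in this was not tested.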
